A study of Mus musculus with 9 samples.

Results

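The mitochondrial respiratory chain passes electrons from food-derived carriers to oxygen, and its last enzyme uses the proton gradient built on the way to make ATP. The genes described here encode the nuclear subunits of complex II (succinate dehydrogenase), complex III (the cytochrome bc1 complex), complex IV (cytochrome c oxidase) and complex V (ATP synthase). They were chosen by name: protein-coding genes called Sdha to Sdhd or Cyc1, or whose symbols begin with Uqcr, Cox4 to Cox8 or Atp5. This gave 48 of the 38293 genes in the count table, 4 of complex II, 9 of complex III, 18 of complex IV and 17 of complex V. Their poly-A RNA was measured by RNA-seq in 3 culture states of E14, a mouse embryonic stem cell (mESC) line of 129/Ola origin, with 3 biological replicates of each state. The mESC-2i were long-term cultures in serum-free N2B27 medium with LIF, the MEK inhibitor PD0325901 and the GSK3 inhibitor CHIR99021. The mESC-ser were grown in foetal bovine serum with LIF on gelatin. The epiblast-like cells (EpiLC) were made from naive mESC by plating on fibronectin in N2B27 with activin A, bFGF and KSR and without the inhibitors. All 9 libraries came from 1 cell line with no added genetic change, so the replicates measure the spread between cultures of that line, and the states differ in medium, coating and inhibitors together.

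Complex II is built of nuclear-encoded proteins alone, oxidises succinate in the citric acid cycle and hands the electrons to ubiquinone. Complexes III, IV and V are of mixed origin: their membrane cores hold proteins made from the mitochondrial genome, surrounded by many nuclear-encoded ones. Pluripotent cells are known for strong glycolysis, and their use of respiration is known to change between the naive and the primed state. Several complex IV subunits and subunit c of complex V come from more than 1 gene, with forms known from heart, skeletal muscle or testis.

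The libraries held 7187576 to 16829549 counts. The naive markers (Zfp42, Klf4, Esrrb, Tfcp2l1, Nanog and Tbx3) summed to 3030 to 3100 CPM (counts per 1000000, with library sizes scaled by TMM) in mESC-2i, against 1630 to 1690 in mESC-ser and 90.6 to 103 in EpiLC. The formative and primed markers (Fgf5, Otx2, Dnmt3b, Pou3f1 and Dnmt3a) summed to 82.6 to 93.6, 780 to 910 and 2150 to 2240 CPM in the same order. The labels call mESC-ser primed, yet their naive marker sums were closer to those of mESC-2i than to those of EpiLC. Replicate 3 of mESC-2i and replicate 3 of mESC-ser stood apart from the other libraries of their groups, with a chi-square per degree of freedom of 10.9 to 28.3 against 1.61 to 4.53 for all other pairs of replicates. Counts from a whole culture cannot separate fewer cells that use a gene from less RNA per cell.

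RNA of these subunits was lowest in mESC-ser and highest in EpiLC. Together the 48 genes took 1.03%, 1.13% and 0.827% of all counts in mESC-2i replicates 1 to 3, 0.639%, 0.656% and 0.557% in the mESC-ser libraries, and 1.37%, 1.40% and 1.32% in EpiLC. The groups did not overlap. The genes of complex IV summed to 2343 ± 440 CPM (SD, n = 3) in mESC-2i, against 1087 ± 132 in mESC-ser and 4880 ± 106 in EpiLC. The sums of complex III were 1303 ± 259, 791 ± 78.2 and 2656 ± 131 CPM, and those of complex V were 4743 ± 709, 3685 ± 287 and 7594 ± 263. For complex II they were 567 ± 69.2, 398 ± 14.7 and 548 ± 13.8 CPM, where the means of mESC-2i and EpiLC differed by less than the SD of mESC-2i.

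**Figure D1:**
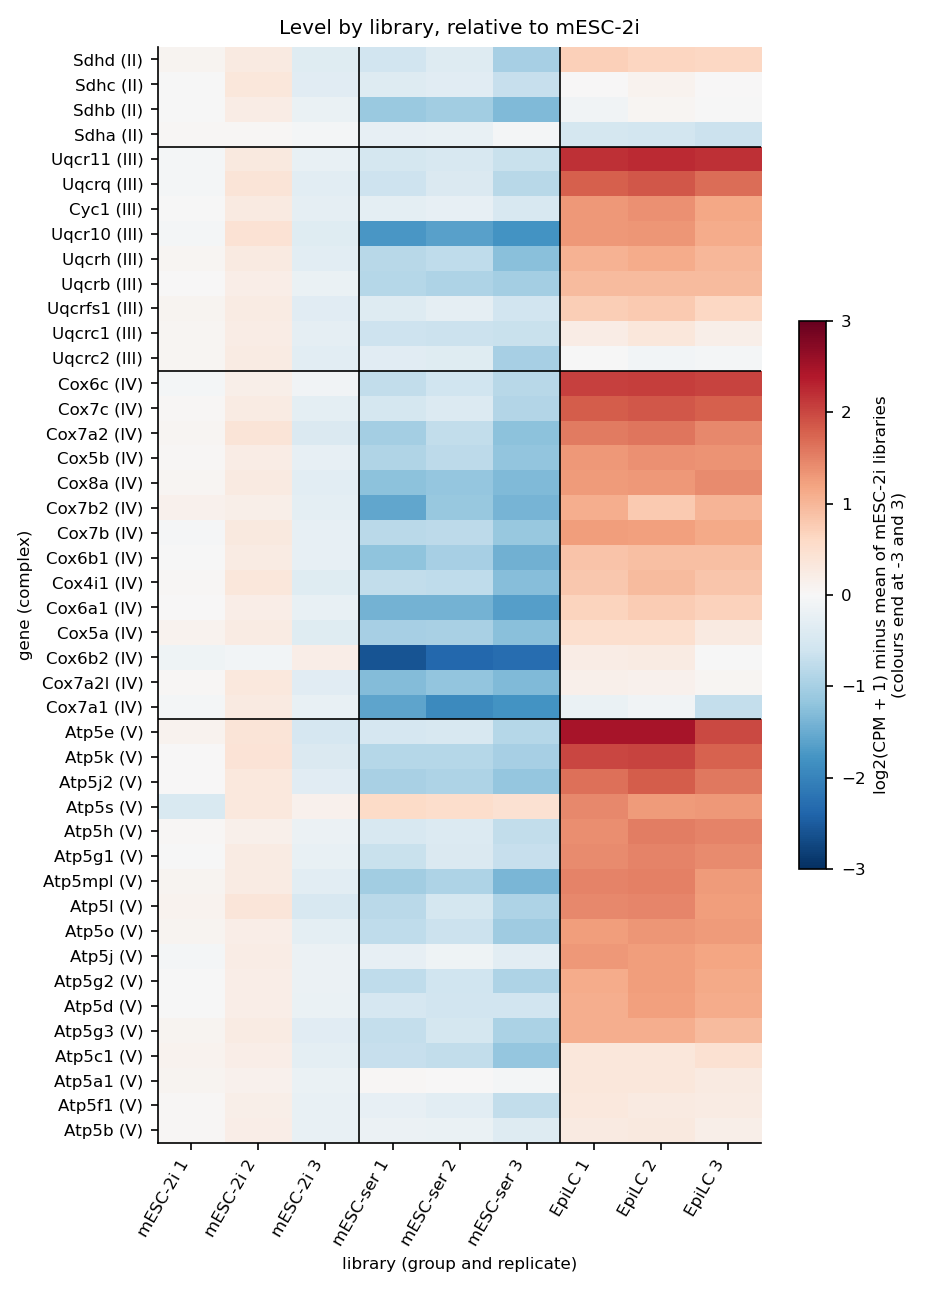
Heat map of the 44 tested subunit genes (rows, grouped by complex) in the 9 libraries (columns), coloured by log2(CPM + 1) minus the mean of the 3 mESC-2i libraries, with colours ending at -3 and 3. Most rows are blue in mESC-ser and red in EpiLC, while Sdha is blue in EpiLC and Atp5s is red in mESC-ser.

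Of the 48 genes, 44 had enough counts for the test in each comparison, and the other 4 are tissue forms of complex IV described further on. A gene was called where edgeR's quasi-likelihood test gave an adjusted p under 0.05 over all tested genes and the absolute log2 fold change was over 0.5. The first comparison asked how serum culture differs from 2i culture. In mESC-ser against mESC-2i, 36 of the 44 genes fell and none rose, with a median log2 fold change of -0.85, where the median of all tested genes was -0.04. Over all 15728 tested genes 30.3% were called lower and 25.9% higher. With offsets for length and GC content 28 of the subunit genes were called lower and 0 higher. Their median was then -0.664, that of all tested genes 0.02, and 4152 of all tested genes were called lower and 4230 higher. Complex IV fell most, with 14 of 14 genes called and a median of -1.22. The 36 and the 14 include Cox7b2, at 0 to 4 counts a library in mESC-ser, which passed the filter only through mESC-2i. The 10 general forms of complex IV, named further on, leave it out and were all called, with a median of -1.06. In complex III 7 of 9 fell (median -0.71), in complex V 12 of 17 (median -0.72) and in complex II 3 of 4 (median -0.64). The 8 genes that were not called were Sdha, Cyc1, Uqcrfs1, Atp5a1, Atp5b, Atp5f1, Atp5j and Atp5s. All 3 mESC-ser libraries lay below all mESC-2i libraries in 36 genes and above them in 1, Atp5s, where the groups did not overlap in 70.7% of all tested genes. Without replicate 3 of both groups 37 genes were called lower and 1 higher, with a median of -0.87.

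The second comparison covers the passage from naive mESC to EpiLC. Here 31 of the 44 genes rose, 12 were not called and Sdha alone fell, with a median of 1.14 against -0.11 for all 15378 tested genes, of which 32.0% were called higher and 37.8% lower. With offsets for length and GC content the median of the subunit genes was 0.655 and that of all tested genes 0.18. Then 29 of the subunit genes were called higher and 1, Cox7a1, lower. Of all tested genes 5764 were called higher with these offsets and 4562 lower. The groups did not overlap in 35 genes with EpiLC higher and in 1 with EpiLC lower, beside 81.8% of all tested genes. Complex V had the highest median, 1.26, with 13 of 17 called higher. Complex III followed with 7 of 9 (median 1.02) and complex IV with 10 of 14 (median 1.02). Complex II was split, with Sdhd called higher, Sdha called lower, Sdhb and Sdhc not called and a median of -0.02.

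The third comparison set EpiLC against mESC-ser, so it shares libraries with both others and is no separate evidence for their directions. In it 42 of the 44 genes rose and none fell, with a median of 2.06 where that of all 15345 tested genes was -0.07. The share of all tested genes called higher was 35.5%, that called lower was 37.8%, and the groups did not overlap in 85.7%. EpiLC lay above mESC-ser without overlap in 43 of the 44 genes and below it in 1, Sdha. The medians by complex were 0.92 in complex II, 2.00 in complex III, 2.35 in complex IV and 2.03 in complex V. Cox7b2 is among the 42, having passed the filter only through EpiLC, and the 10 general forms of complex IV had a median of 2.35 without it. Sdha and Atp5a1 were not called.

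**Figure D2:**
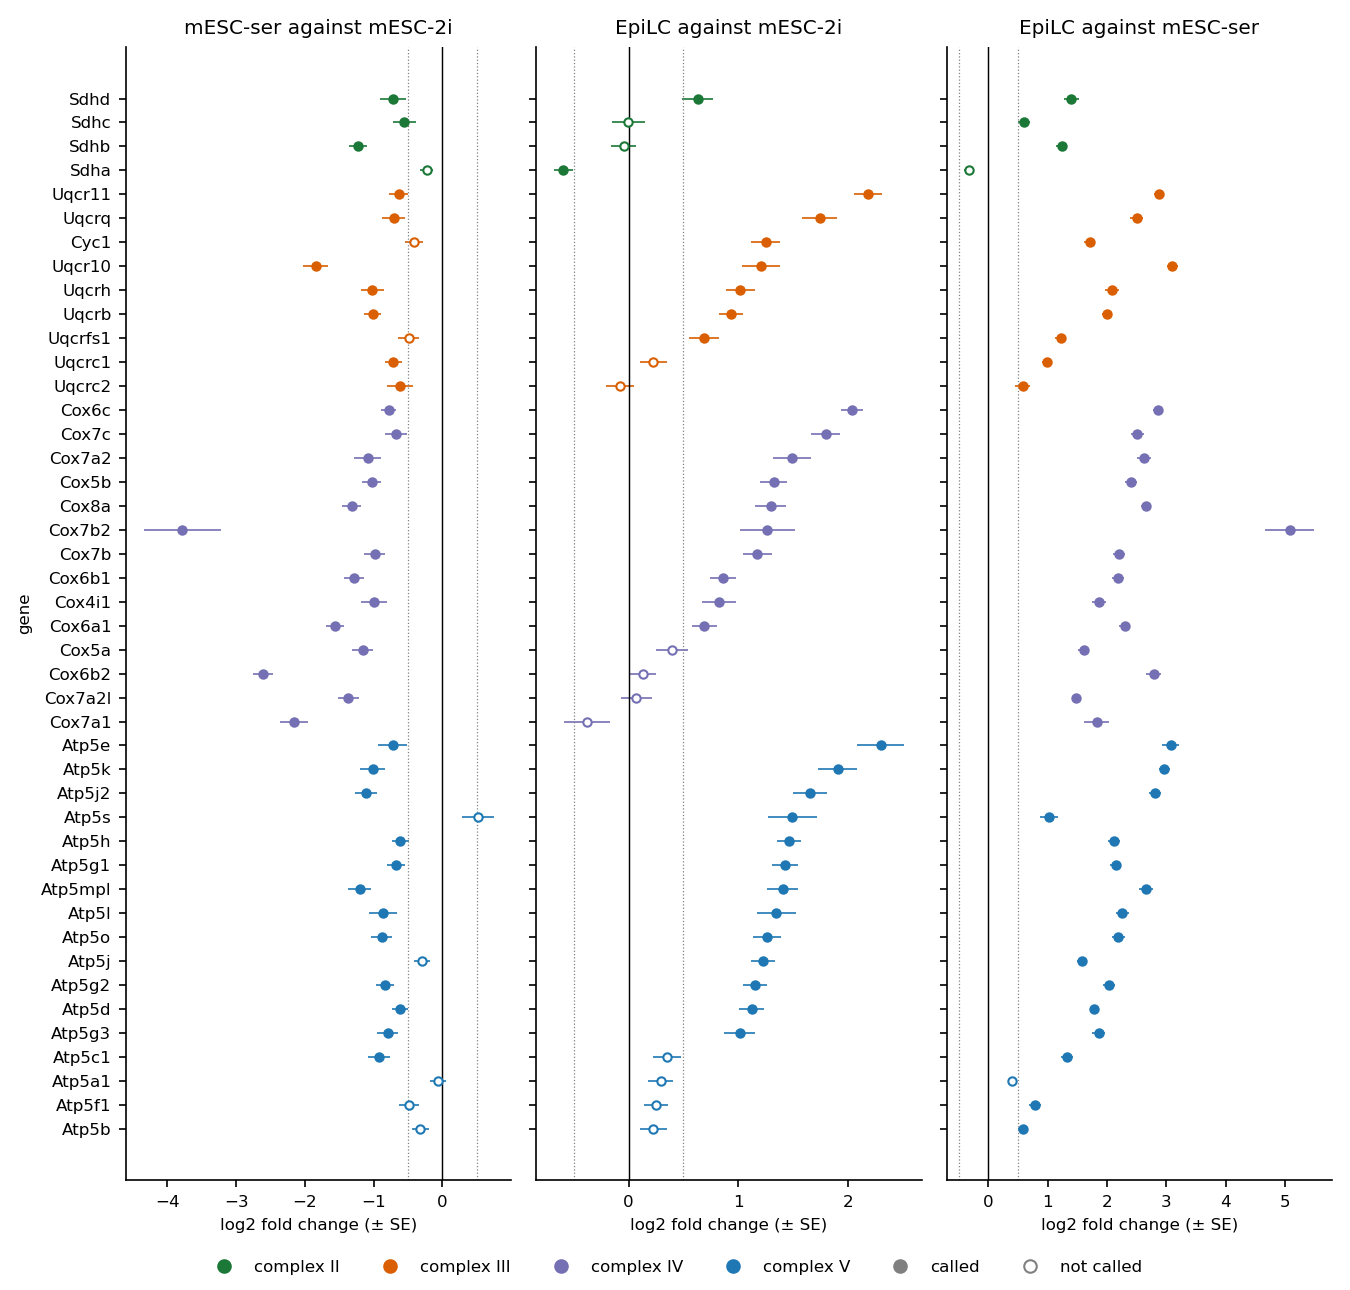
Log2 fold change ± SE of each tested subunit gene in the 3 comparisons, coloured by complex, with filled points for called genes and dotted lines at -0.5 and 0.5. Genes are ordered within each complex by their change in EpiLC against mESC-2i, where Sdhd (0.63), Uqcr11 (2.18), Cox6c (2.04) and Atp5e (2.30) lead their complexes and the large subunits Atp5a1, Atp5b and Uqcrc2 lie near 0.

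Fold changes in these libraries followed gene length, and the subunit genes are short, with a median exonic length of 1716 bp where protein-coding genes tested in mESC-ser against mESC-2i had 4438 bp. Over all tested coding genes Spearman's rho between fold change and length was 0.28, -0.30 and -0.49 in the 3 comparisons in turn, given as a description of genes of the same libraries. Coding genes whose length fell between the quartiles of the subunit genes, 1125 to 2697 bp, had median log2 fold changes of -0.31, 0.46 and 0.85. Of these, 40.6% were called lower in the first comparison, 47.3% higher in the second and 60.9% higher in the third. Each subunit gene was therefore set beside the median of the other tested coding genes within 20% of its own length. In mESC-ser against mESC-2i, 41 of the 44 genes lay below the genes of like length, with a median difference of -0.53. In EpiLC against mESC-ser 40 lay above them, with a median difference of 0.78, or 32 and 0.41 when the other genes also had to lie within 1 log2 CPM of the level of the subunit gene. In EpiLC against mESC-2i 29 lay above them, with a median difference of 0.34. There the choice of the other genes decided the sign: 19 of 44 lay above them, with a median difference of -0.19, when level was also held, and 33, with a median difference of 0.59, when the length of the median coding transcript replaced that of all exons. Without replicate 3 of mESC-2i the count was 25 and the median difference 0.22. In that comparison complex V differed from the other complexes, with 16 of its 17 genes above those of like length and a median difference of 0.67. The counts were 7 of 14 in complex IV (median difference -0.11), 5 of 9 in complex III (0.04) and 1 of 4 in complex II (-0.34). These counts by complex rest on exonic length alone and were not made with level held or with transcript length. Some genes have far more exonic bases than their median coding transcript. In complex V these include Atp5l (6443 against 544 bp), Atp5g1 (4912 against 2676) and Atp5j2 (3306 against 540), and in complex IV Cox6c (3567 against 606). The differences between complexes were not tested.

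**Figure D3:**
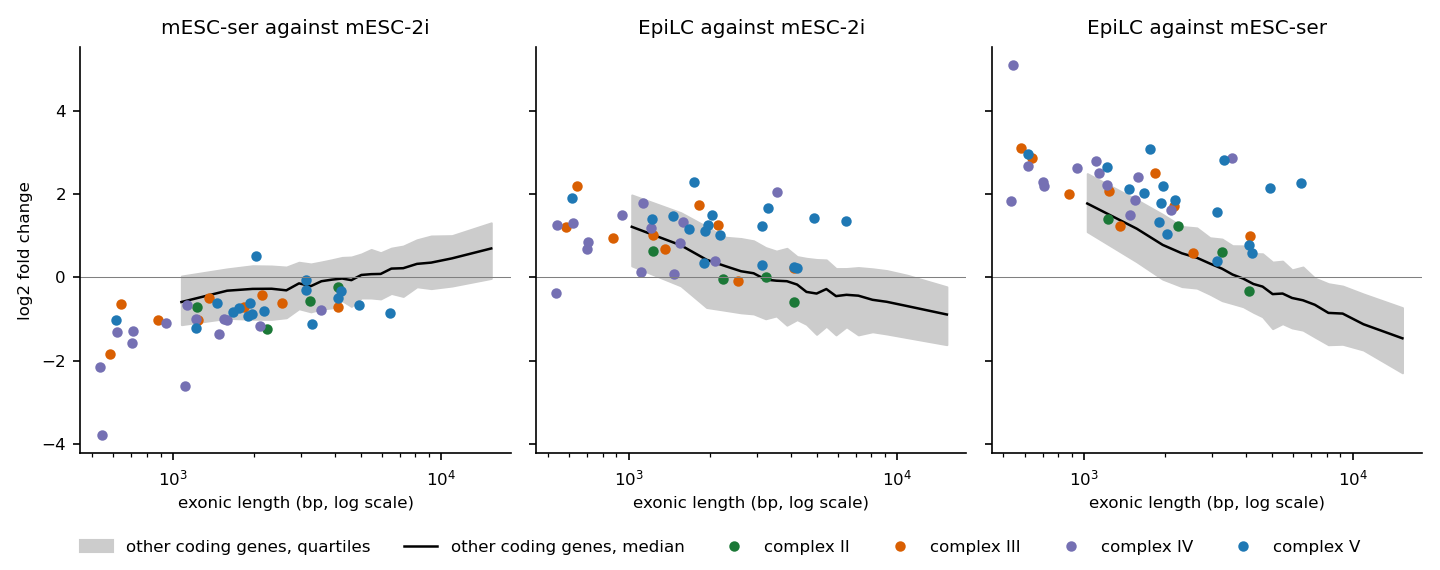
Log2 fold change against exonic length (bp, log scale) in the 3 comparisons, with the line and grey band giving the median and quartiles of other tested coding genes in 20 bins of length and points for the subunit genes by complex. The points lie mostly below the line in mESC-ser against mESC-2i and above it in EpiLC against mESC-ser, and the complex V points lie above it in EpiLC against mESC-2i.

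The sequences before the start sites are shown for a gene of each complex. That gene had the largest called rise in EpiLC against mESC-2i among those with a RefSeq (GRCm38.p6) window on hand. For complex IV this was Cox7c, which came after Cox6c. Each is the stretch of at most 120 bases next to the start that no annotated exon covers, 5′ to 3′ on the strand of the gene, with matches to an ETS family core (CCGGAAG on either strand) in capitals. Sdhd is shown at chr9:50603850-50603909, where the first exon of Timm8b on the other strand ends the stretch at 60 bases, Uqcr11 at chr10:80406831-80406950, Cox7c at chr13:86046905-86047024, up to the GENCODE start 109 bases before that of RefSeq, and Atp5e at chr2:174464106-174464225, all on the minus strand.
Sdhd: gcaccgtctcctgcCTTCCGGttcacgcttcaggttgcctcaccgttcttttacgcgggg
Uqcr11: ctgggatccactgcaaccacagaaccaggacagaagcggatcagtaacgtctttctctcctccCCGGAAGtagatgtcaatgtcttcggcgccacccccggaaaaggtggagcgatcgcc
Cox7c: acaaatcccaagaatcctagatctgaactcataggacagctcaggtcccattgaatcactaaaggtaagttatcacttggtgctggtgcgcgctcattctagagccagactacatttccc
Atp5e: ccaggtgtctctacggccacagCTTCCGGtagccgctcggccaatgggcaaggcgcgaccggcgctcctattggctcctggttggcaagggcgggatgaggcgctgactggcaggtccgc
Windows from 250 bases before to 50 after the start were on hand for 36 of the 48 genes. The ETS core was found in 11 of them (30.6%), against 17.7% of 10731 windows of other tested coding genes. The core of NRF1 (GCGCATGC, either strand), a factor known from respiratory gene promoters, was found in 7 (19.4%) against 5.37%. That of YY1 (AAGATGGCG, either strand) was found in 1 (2.78%) against 3.08%. These are letter matches and not binding sites.

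Complex II has a catalytic part in the matrix, Sdha and Sdhb, and a membrane anchor, Sdhc and Sdhd, that holds haem. Sdha (ENSMUSG00000021577; mm10 chromosome 13, 74322254 to 74350280, minus strand), the flavoprotein that oxidises succinate, stood at 239, 240.2 and 227 CPM in mESC-2i, at 198, 201 and 227 in mESC-ser and at 164, 160.0 and 149.8 in EpiLC. It was the only subunit gene that fell in EpiLC against mESC-2i, by 0.59 on the log2 scale (SE 0.09, edgeR adjusted p = 9.09e-05), and all 3 EpiLC libraries lay below the other 6. The change was -0.21 with offsets for length and GC content, short of the threshold on the fold. Sdhb (ENSMUSG00000009863; chromosome 4, 140961203 to 140979193, plus strand), the iron-sulphur subunit, was at 141, 165 and 123 CPM in mESC-2i, at 65.2, 68.5 and 56.2 in mESC-ser and at 132, 147 and 141 in EpiLC. Its fall of -1.23 (SE 0.13, edgeR adjusted p = 1.54e-05) in mESC-ser was the largest of complex II, while mESC-2i and EpiLC overlapped (-0.04, SE 0.11). Of the anchor genes, Sdhd was called in EpiLC against mESC-2i and Sdhc was not (-0.00). Sdhc (chromosome 1, 171127165 to 171150603) was at 80.9, 102 and 64.1 CPM in mESC-2i, at 61.8, 63.6 and 49.6 in mESC-ser and at 81.5, 87.0 and 81.4 in EpiLC. Its change of -0.56 (SE 0.17, edgeR adjusted p = 0.0127) in mESC-ser was not called without replicate 2 of mESC-2i (-0.38) or replicate 3 of mESC-ser (-0.44), and its rise of 0.60 in EpiLC over mESC-ser was not called without the latter (0.50) or with total-count scaling (0.26). Sdhd (chromosome 9, 50596357 to 50603812) was at 111, 126 and 81.4 CPM in mESC-2i, at 69.4, 80.1 and 51.6 in mESC-ser and at 174, 165 and 160.2 in EpiLC. Sdhd rose by 0.63 (SE 0.14, edgeR adjusted p = 0.00182) in EpiLC over mESC-2i and by 1.40 (SE 0.12) over mESC-ser. The first of these was short of the fold threshold without replicate 3 of mESC-2i (0.47), with total-count scaling (0.29) and with length and GC offsets (0.44), and with these offsets neither the fall of Sdhc (-0.33) nor that of Sdhd (-0.37) in mESC-ser was called.

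Cyc1, cytochrome c1, and Uqcrfs1, the Rieske iron-sulphur protein, carry its nuclear-encoded redox centres. Neither was called in mESC-ser, at -0.41 and -0.49, though both were without replicate 3 of mESC-2i (-0.53 and -0.64), and they rose by 1.25 and 0.68 in EpiLC over mESC-2i. Uqcrc1 and Uqcrc2, the core proteins that face the matrix, fell by 0.72 and 0.61 in mESC-ser and were not called in EpiLC against mESC-2i, at 0.22 and -0.08, although Uqcrc1 was called there with length and GC offsets (0.58). The Uqcrc2 fall was not called without replicate 1 of mESC-2i (-0.58, edgeR adjusted p = 0.0519) or replicate 3 of mESC-ser (-0.41), its rise of 0.58 over mESC-ser was not called without that library (0.39), with total-count scaling (0.24) or without the filter on low counts (0.495), and Uqcrc2 overlaps Pdzd9 on the other strand, whose reads these unstranded libraries cannot tell apart. All 5 small subunit genes (Uqcrb, Uqcrh, the hinge protein, Uqcrq, Uqcr10 and Uqcr11) fell in mESC-ser, by 0.64 to 1.84 on the log2 scale, and all 5 rose in EpiLC, by 0.93 to 2.18 over mESC-2i and by 2.00 to 3.10 over mESC-ser.

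Uqcr10 (ENSMUSG00000059534; chromosome 11, 4701973 to 4704342, minus strand) fell most, from 145.5, 204 and 117 CPM in mESC-2i to 44.2, 48.2 and 42.7 in mESC-ser, or by -1.84 on the log2 scale (SE 0.18, edgeR adjusted p = 8.65e-06). It stood at 375, 383 and 331 CPM in EpiLC, the largest rise of complex III over mESC-ser (3.10, SE 0.09). Uqcr11 (ENSMUSG00000020163; chromosome 10, 80402997 to 80406830, minus strand) was at 71.3, 92.0 and 63.8 CPM in mESC-2i, at 51.9, 53.0 and 46.9 in mESC-ser and at 346, 357 and 343 in EpiLC. The 3 groups of Uqcr11 did not overlap. Its rise over mESC-2i, 2.18 (SE 0.13, edgeR adjusted p = 1.26e-07), was the largest of complex III, and its fall in mESC-ser was not called without replicate 2 of mESC-2i (-0.49). In EpiLC against mESC-2i Uqcr10 lay below genes of like length, whose median was 1.55, and Uqcr11 lay above its own, whose median was 1.54. With length and GC offsets the falls of Uqcrc1 (-0.43), Uqcrq (-0.34) and Uqcr11 (-0.25) in mESC-ser were short of the fold threshold, as was the rise of Uqcrfs1 over mESC-2i with total-count scaling (0.35).

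In complex IV 10 genes are general forms, present in most tissues: Cox4i1, Cox5a, Cox5b, Cox6a1, Cox6b1, Cox6c, Cox7a2, Cox7b, Cox7c and Cox8a. All 10 fell in mESC-ser, by 0.67 (Cox7c) to 1.56 (Cox6a1) on the log2 scale, and rose in EpiLC over mESC-ser, by 1.61 (Cox5a) to 2.87 (Cox6c). In EpiLC over mESC-2i 9 of the 10 rose, and Cox5a was not called (0.40), though it was without replicate 2 of mESC-2i (0.56). Cox6c (ENSMUSG00000014313; chromosome 15, 35925886 to 35938246, minus strand) was at 119, 138 and 113 CPM in mESC-2i, at 73.6, 81.2 and 68.9 in mESC-ser and at 514, 516 and 505 in EpiLC. Its rise of 2.04 (SE 0.10, edgeR adjusted p = 3.5e-08) was the largest of complex IV over mESC-2i. Genes of like exonic length (3567 bp) had a median of -0.06 there, while the median coding transcript of Cox6c is 606 bp. Cox6c overlaps Vps13b on the other strand. Cox7c (ENSMUSG00000017778; chromosome 13, 86044816 to 86046904, minus strand) followed with 103, 120.2 and 82.3 CPM in mESC-2i, against 69.2, 76.1 and 54.7 in the mESC-ser libraries and 357, 366 and 350.4 in EpiLC, a rise of 1.80 (SE 0.13). Cox6a1 rose by 0.69 in EpiLC over mESC-2i, less than genes of its length (median 1.56), and was at -0.19 with offsets for length and GC content and at 0.35 with total-count scaling. With these offsets the rises of Cox4i1, Cox6b1 and Cox8a over mESC-2i fell to 0.47, 0.41 and 0.48, short of the fold threshold, as did that of Cox4i1 with total-count scaling (0.49). Cox4i1 overlaps Emc8 on the other strand.

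Several complex IV subunits have a second gene for a tissue form, and these forms were low in all states or lost most in mESC-ser. Cox6b2, the testis form of subunit 6B, was at 43.5, 44.9 and 54.7 CPM in mESC-2i, at 7.0, 8.4 and 9.0 in mESC-ser and at 55.7, 56.6 and 46.9 in EpiLC. The mESC-ser libraries stood far below the others, and Cox6b2 changed by -2.61 on the log2 scale (SE 0.15, edgeR adjusted p = 2.19e-07) where genes of like length had -0.58, while mESC-2i and EpiLC overlapped (0.13, SE 0.12). Its general partner Cox6b1 was at 217.5, 258.5 and 184.5 CPM in mESC-2i, at 93.2, 108 and 80.3 in mESC-ser and at 398, 408 and 406 in EpiLC. Cox6b2 thus gave 16.7%, 14.8% and 22.9% of the counts of subunit 6B in mESC-2i, against 6.98%, 7.20% and 10.1% in the mESC-ser libraries and 12.3%, 12.2% and 10.3% in EpiLC. No pair of groups overlapped in this share.

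Cox7a1, the heart and muscle form of subunit 7A, was at 10.6, 13.5 and 9.20 CPM in mESC-2i, at 3.01, 2.21 and 2.47 in mESC-ser and at 9.40, 10.1 and 6.28 in EpiLC. It fell by 2.16 (SE 0.20, edgeR adjusted p = 7.01e-06) in mESC-ser. In EpiLC against mESC-2i the groups overlapped (-0.38, SE 0.21), and Cox7a1 was called lower there with total-count scaling (-0.72), with length and GC offsets (-1.12) and without replicate 3 of mESC-2i (-0.51). Its general partner Cox7a2 was at 117, 147 and 82.6 CPM in mESC-2i, at 54.5, 67.4 and 47.5 in mESC-ser and at 333, 344 and 305 in EpiLC. Cox7a1 made up 8.91% ± 0.97 (SD, n = 3) of the counts of Cox7a1 and Cox7a2 together in mESC-2i, against 4.45% ± 1.11 in mESC-ser and 2.54% ± 0.45 in EpiLC. Cox7a2l, a relative that joins complexes III and IV into a supercomplex, was at 161, 198 and 125 CPM in mESC-2i, at 63.2, 68.9 and 62.9 in mESC-ser and at 176, 174 and 164 in EpiLC. Cox7a2l fell by 1.37 (SE 0.15) in mESC-ser and overlapped between mESC-2i and EpiLC, and its ratio to Cox7a2 was 1.41 ± 0.09 in mESC-2i, against 1.17 ± 0.15 in mESC-ser and 0.52 ± 0.02 in EpiLC.

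Cox7b2, the testis form of subunit 7B, had few reads: 2.21, 2.33 and 1.40 CPM in mESC-2i, 0.00, 0.34 and 0.11 in the mESC-ser libraries (0 to 4 counts a library) and 5.24, 4.12 and 5.03 in EpiLC. It passed the filter against mESC-ser only through the group where it was high, with 18 to 28 counts a library in mESC-2i and 38 to 40 in EpiLC, so its fitted changes of -3.78 (SE 0.56) in mESC-ser and 5.08 (SE 0.41) in EpiLC over mESC-ser are given as a description, and the other 13 tested complex IV genes were all called in both comparisons. Its general partner Cox7b was at 193, 243 and 166 CPM in mESC-2i, at 112, 114.5 and 89.1 in mESC-ser and at 471, 468 and 435 in EpiLC. Cox7b2 gave 0.97% ± 0.15 of their joint counts in mESC-2i, against 0.14% ± 0.15 in mESC-ser and 1.04% ± 0.14 in EpiLC. Cox4i1, the general form of subunit 4, was at 394, 488 and 299 CPM in mESC-2i, at 229, 229 and 159 in mESC-ser and at 676, 752 and 691.5 in EpiLC, while Cox4i2, the form linked to lung and low oxygen, had 3 to 8 counts a library. Cox6a1, the general form of subunit 6A, was at 300.0, 346 and 257 CPM in mESC-2i, at 112, 112 and 94.2 in mESC-ser and at 479, 508 and 486 in EpiLC, while the muscle form Cox6a2, which overlaps Itgad on the other strand, had 0 to 8 counts. Cox8a was at 289, 331 and 221 CPM in mESC-2i, at 118, 123 and 109.5 in mESC-ser and at 667.5, 679 and 746 in EpiLC. The muscle form Cox8b had 0 to 1 counts and the testis form Cox8c 0 to 11. These 4 tissue forms were too low for the test. Markers of heart and skeletal muscle (6 genes) summed to 11.4 to 14 CPM in mESC-2i, against 29.6 to 36.4 in mESC-ser and 23.9 to 25.7 in EpiLC, and those of testis germ cells (5 genes, with Tnp1, Prm1 and Prm2 at 0 to 4 counts a library) to 10.8 to 12.1, 36.3 to 45.0 and 40.2 to 48.4 CPM. Both sums were higher in mESC-ser than in mESC-2i, where Cox6b2 and Cox7a1 were higher, and the part of other cells in these low levels was not tested. The muscle list itself was split, since Myh6, Myh7 and Acta1 rose in mESC-ser by 4.69, 3.31 and 1.86 while Tnnt2 fell by 4.58. The fibroblast markers summed to 43.6 to 50.3, 58.4 to 77.3 and 40.8 to 45.2 CPM, and this list was split too. In mESC-ser Col1a1 rose by 1.09 and Col3a1 fell by 2.54. In EpiLC against mESC-2i Thy1 (3.25) and Dcn (4.08) rose, while Col1a1 (-3.88), Col1a2 (-1.55) and Col3a1 (-5.82) fell. Primitive endoderm markers summed to 18.4 to 22.6, 32.5 to 34.2 and 6.78 to 8.68 CPM.

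The catalytic head of complex V, where ATP is made, is a ring of alpha and beta subunits. Atp5a1 (ENSMUSG00000025428; chromosome 18, 77773729 to 77782869, plus strand), the alpha subunit, stood at 1034, 1077 and 854 CPM in mESC-2i, at 1005, 999 and 943 in mESC-ser and at 1239, 1239 and 1195 in EpiLC. It was called in no comparison (-0.07, 0.29 and 0.40), and it overlaps Haus1 on the other strand. Atp5b (ENSMUSG00000025393; chromosome 10, 128083273 to 128090391, plus strand), the beta subunit with the catalytic sites, was at 1807, 2023 and 1512 CPM in mESC-2i, at 1561, 1533 and 1352 in mESC-ser and at 2143, 2165 and 2008 in EpiLC. Its rise over mESC-ser was called at 0.59 (SE 0.08, edgeR adjusted p = 4.97e-06), but not with total-count scaling (0.25), and its changes of -0.32 in mESC-ser and 0.22 in EpiLC over mESC-2i were short of the fold threshold, though the second was called at 0.63 with length and GC offsets. Per kb of its median coding transcript, Atp5b was the most abundant subunit RNA in mESC-2i (929 CPM per kb) and mESC-ser (774 CPM per kb). In EpiLC Cox8a stood above it, at 1268 against 1099 CPM per kb. With all exonic bases of the gene as its length, Cox8a came first in mESC-2i too, at 453 against 420.2 CPM per kb.

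The genes of the central stalk, which turns inside the head, changed by unequal amounts. Atp5c1, the gamma subunit, fell by 0.93 in mESC-ser and was not called in EpiLC against mESC-2i (0.35). Atp5d, the delta subunit, which overlaps Cbarp on the other strand, fell by 0.62 and rose by 1.12. Atp5e (ENSMUSG00000016252; chromosome 2, 174461072 to 174464105, minus strand), the small epsilon subunit, was at 35.7, 43.4 and 23.0 CPM in mESC-2i, at 22.9, 23.5 and 17.9 in mESC-ser and at 186, 189 and 132 in EpiLC. EpiLC lay above all other libraries and mESC-2i overlapped mESC-ser. Atp5e had the largest rise of all 44 genes over mESC-2i, 2.30 (SE 0.21, edgeR adjusted p = 3.21e-06), and the largest of complex V over mESC-ser (3.07, SE 0.14). Genes of like exonic length (1756 bp) had a median of 0.55 over mESC-2i, while the median coding transcript of Atp5e is 421 bp. Its fall in mESC-ser (-0.72, SE 0.21) was not called without replicate 3 of mESC-ser (-0.59, edgeR adjusted p = 0.0589) or with length and GC offsets (-0.37). These offsets also left the falls of Atp5d (-0.32), Atp5g3 (-0.49) and Atp5h (-0.40) in mESC-ser short of the fold threshold. The counts of Atp5e were 1.88% ± 0.32 (SD, n = 3) of those of Atp5b in mESC-2i, against 1.44% ± 0.11 in mESC-ser and 7.99% ± 1.22 in EpiLC.

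The ring of subunit c, which turns as protons cross the membrane, is encoded by Atp5g1, Atp5g2 and Atp5g3, whose mature protein is the same. All 3 fell in mESC-ser (-0.67, -0.83 and -0.80) and rose in EpiLC over mESC-2i (1.43, 1.15 and 1.01). Atp5g1 was at 118, 142.5 and 103 CPM in mESC-2i, at 75.7, 88.1 and 74.0 in mESC-ser and at 325, 340.2 and 324.5 in EpiLC. Atp5g2 was at 68.8, 79.2 and 60.7 CPM in mESC-2i, at 40.4, 45.3 and 36.1 in mESC-ser and at 149.7, 166 and 152.5 in EpiLC. Atp5g3, the most abundant of them in every library, was at 262, 298 and 198 CPM in mESC-2i, at 152.5, 173 and 129 in mESC-ser and at 531, 534 and 485 in EpiLC. The share of Atp5g1 in their joint counts was 27.4% ± 1.07 in mESC-2i, against 29.3% ± 1.49 in mESC-ser and 32.9% ± 0.73 in EpiLC, and EpiLC did not overlap the others. That of Atp5g3 was 56.8% ± 1.84, 55.7% ± 1.59 and 51.5% ± 1.19, and that of Atp5g2 was 15.8% ± 0.85, 15.0% ± 0.17 and 15.6% ± 0.60.

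Of the peripheral stalk, which keeps the head from turning, Atp5f1 (subunit b) was called in EpiLC against mESC-ser (0.79, but 0.45 with total-count scaling) and in neither other comparison, at -0.49 and 0.25. With length and GC offsets it was called in both, at -0.75 and 0.53, and in mESC-ser also with total-count scaling (-0.53) and without replicate 3 of mESC-2i (-0.59) or replicate 1 (-0.56) or 2 (-0.50) of mESC-ser, and it overlaps Wdr77 on the other strand. Atp5h (subunit d), Atp5o (the oligomycin sensitivity protein) and Atp5j (coupling factor 6, which overlaps Gabpa on the other strand) rose by 1.46, 1.26 and 1.23 in EpiLC over mESC-2i. In mESC-ser Atp5h fell by 0.61 and Atp5o by 0.89, and Atp5j was not called (-0.30). The 4 small membrane subunits, Atp5j2 (f), Atp5k (e), Atp5l (g) and Atp5mpl, moved more alike. They fell by 0.86 to 1.21 on the log2 scale in mESC-ser and rose by 1.35 to 1.91 in EpiLC over mESC-2i, each above genes of like exonic length there. Atp5mpl (ENSMUSG00000021290; chromosome 12, 111961375 to 111966977, minus strand) fell most of complex V, from 74.2, 83.4 and 55.7 CPM in mESC-2i to 33.5, 36.2 and 26.6 in mESC-ser (-1.21, SE 0.17, edgeR adjusted p = 0.000108), and was at 199.6, 201 and 170.5 in EpiLC. Atp5s, a coupling factor that is not a subunit of the purified enzyme, was the exception among these names. It was at 1.97, 4.09 and 3.43 CPM in mESC-2i, at 5.04, 4.84 and 4.59 in mESC-ser and at 10.1, 8.90 and 8.92 in EpiLC, with 16 to 82 counts a library. Atp5s rose by 1.49 (SE 0.22) in EpiLC over mESC-2i, and its change in mESC-ser, 0.51 (SE 0.23, edgeR adjusted p = 0.0733), was called without replicate 2 of mESC-2i (0.71).

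Within a library, ratios of subunit counts differed between the states. These ratios were chosen after the values were seen, and with 3 libraries a group an exact permutation test cannot give a p below 0.1. The 5 small subunit genes of complex III had 1.30 ± 0.08 (SD, n = 3) times the counts of the 2 core proteins in mESC-2i, against 1.00 ± 0.04 times in mESC-ser and 3.22 ± 0.04 times in EpiLC. The 4 small membrane subunit genes of complex V had 0.099 ± 0.011, 0.055 ± 0.003 and 0.255 ± 0.013 times the counts of Atp5a1 and Atp5b. The general complex IV genes had 0.76 ± 0.05, 0.41 ± 0.03 and 1.39 ± 0.04 times the counts of the same pair. None of these groups overlapped. Sdha held 41.9% ± 3.92 of the complex II counts in mESC-2i, against 52.7% ± 5.63 in mESC-ser and 28.8% ± 0.82 in EpiLC, also without overlap. These ratios move with gene length as the fold changes do, and its part in them was not tested.

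**Figure D4:**
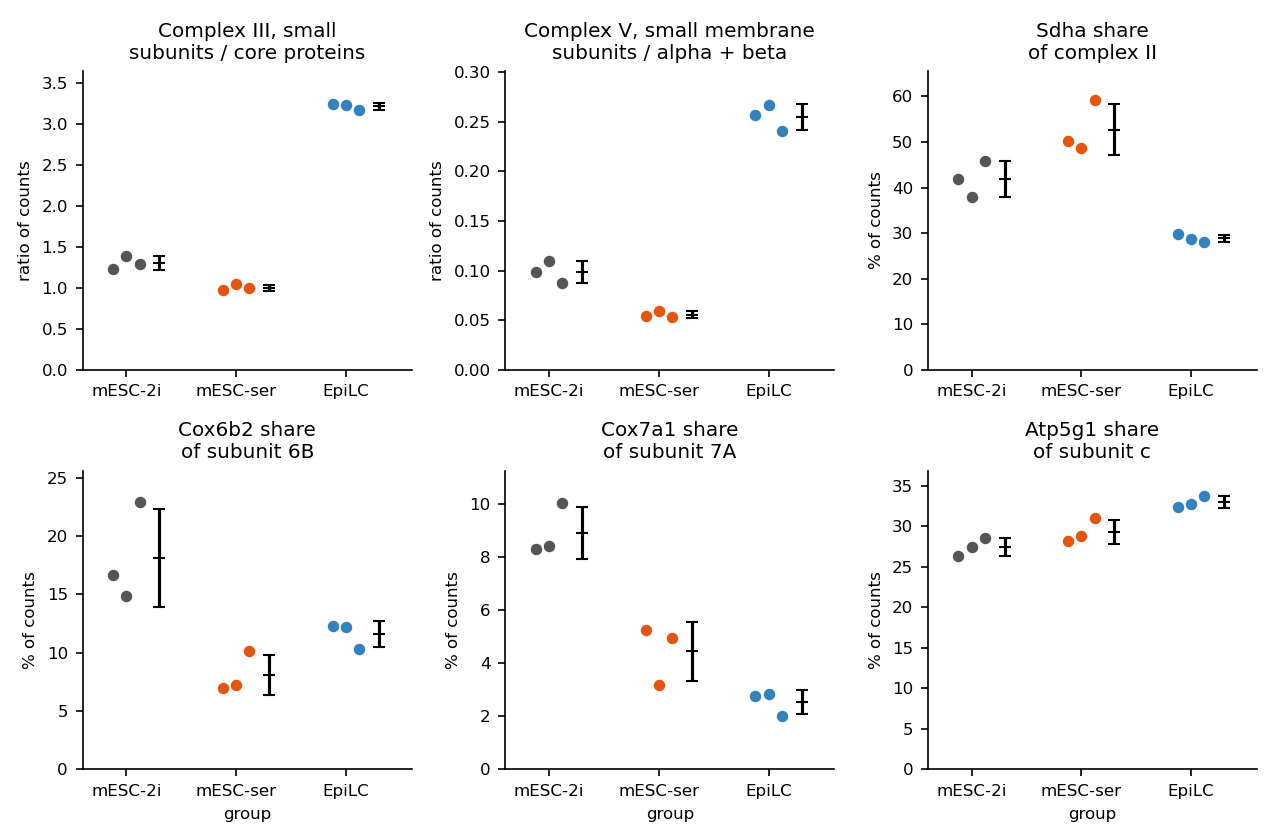
Ratios and shares of counts within each library (points) with the mean and SD of each group of 3 (bar), on axes that start at 0. The small subunits of complexes III and V reach 3.22 and 0.255 times their large partners in EpiLC, the Sdha share is lowest there (28.8%), and the shares of Cox6b2 and Cox7a1 are highest in mESC-2i (18.1% and 8.91%).

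Processed pseudogenes whose symbols match the names used to choose the genes share sequence with 4 of them, so that reads could be split between copies. Copies under other names were not looked for, so the other genes are not known to be free of them. The 3 copies of Atp5l summed to 56.8% to 73.0% of the counts of Atp5l itself, Cox6c2 had 14% to 18.4% of those of Cox6c, Atp5k-ps2 had 22.8% to 40.3% of those of Atp5k and Uqcrh-ps1 had 6.67% to 12.8% of those of Uqcrh. Adding the counts of all 7 copies to the parent genes changed none of the calls, and the values of these 4 genes are uncertain to that extent.

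The partners of these subunits on the mitochondrial genome (mt-Cytb of complex III, mt-Co1 to mt-Co3 of complex IV, mt-Atp6 and mt-Atp8 of complex V) also fell in mESC-ser. All 6 of 6 were called lower, beside 30.3% of all tested genes, with a median log2 fold change of -0.94. In EpiLC over mESC-2i they did not follow the nuclear genes as a group: mt-Cytb (0.66), mt-Co2 (0.53) and mt-Atp6 (0.57) rose, mt-Atp8 fell by 1.09, and mt-Co1 (-0.41) and mt-Co3 (-0.00) were not called. Of all tested genes 32.0% were called higher there and 37.8% lower. Their reads come through poly-A selection and can be shared with nuclear copies. Cycs, cytochrome c, which carries electrons from complex III to complex IV, was not called in mESC-ser (0.17) and rose by 1.99 in EpiLC over mESC-2i. Ndufa4, once counted in complex I and now placed in complex IV, fell by 0.98 and rose by 1.15 in the same comparisons.

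Assembly factors, which build the complexes but are no part of them, had smaller median changes than the subunits. Gene length was not held in this comparison, and its part in the difference was not tested. Of 35 listed, 10 fell in mESC-ser, a share near the 30.3% of all tested genes, and 1, Coa5, rose (median -0.21). In EpiLC over mESC-2i 20 rose, beside 32.0% of all tested genes, and 2, Cox15 and Taco1, fell (median 0.71). Over mESC-ser 27 rose, beside 35.5%, and 3, Coa5, Cox15 and Taco1, fell (median 0.97). By complex, 3 of 4 factors of complex II, 2 of 6 of complex III, 13 of 22 of complex IV and 2 of 3 of complex V rose over mESC-2i. Uqcc2 of complex III (2.61), Coa6 (2.07) and Sco2 (1.98), both of copper delivery to complex IV, rose most. Cox15, which makes haem a, fell by 1.29 and Taco1, a translation activator of mt-Co1, by 1.44. Of the 14 listed regulators of mitochondrial biogenesis 13 were tested. In mESC-ser 5 rose, beside 25.9% of all tested genes, and 1 fell, beside 30.3%. Gabpa (0.94), Yy1 (0.65), Pprc1 (0.76), Lin28a (1.90) and Lin28b (2.54) rose and Esrra fell by 0.98. In EpiLC over mESC-2i 5 rose, beside 32.0% of all tested genes, and 1 fell, beside 37.8%. Lin28a (1.75), Lin28b (2.12), Ppargc1b (0.78), Tfam (0.76) and Tfb1m (0.76) rose and Gabpa fell by 1.27, while Nrf1 was not called (0.46). Over mESC-ser 3 rose, Esrra, Ppargc1b and Tfb1m, and 4 fell, Gabpa, Yy1, Pprc1 and Polrmt. Both shares lay below those of all tested genes, 35.5% higher and 37.8% lower.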

How the data were processed

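The files held raw counts per gene, which the authors made from 50 bp single-end reads trimmed with Trim Galore 0.6.6, aligned to mm10 with HISAT2 2.2.1 and counted with featureCounts of Subread 2.0.1, versions as in the submitters' processing notes. The annotation release, the strand setting and the handling of reads with several matches are not given in the sources used here, and the TruSeq v2 kit does not mark strand. From the deposited counts, CPM with TMM factors and the tests were computed with edgeR 4.0.16 in R 4.3.3 (filterByExpr, quasi-likelihood F-test, group as the only term, Benjamini-Hochberg over all tested genes) on the 6 libraries of each pair of groups. Symbols, positions and exonic lengths came from GENCODE M21 (GRCm38, the assembly of mm10), which matched 36429 of 38293 identifiers, and the unmatched ones held 0.596% to 0.827% of the counts of a library. Reads had no molecular identifiers. Coding genes that overlap a member are named beside it, and Atp5o, Uqcrb, Cox5a, Atp5l and Atp5g2 overlap other models.

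The genes and lists were chosen with earlier results of these data known. Values per library are given for complex II, for the largest called rise and fall of each complex and comparison, and for forms of 1 subunit. Atp5a1, Atp5b, Atp5s and Cox7c were added after their values were seen. Alternatives were DESeq2 1.42.0, RLE and total-count scaling, no filter, all 9 libraries in one fit, other thresholds, length and GC offsets (splines with 5 degrees of freedom), other windows of length and leaving out each library. Same-numbered libraries of mESC-2i and mESC-ser deviated together in all 3 pairs (r from 0.144 to 0.363, where pairs of unlike number ran from -0.298 to 0.16). By a minimum r of 0.1 those numbers were taken to pair the libraries. In EpiLC against mESC-2i same-numbered r ran from 0.0147 to 0.128 and unlike r from -0.131 to 0.0117. In EpiLC against mESC-ser they ran from 0.0127 to 0.0362 and from -0.041 to 0.0253. In both, the numbers were not taken to pair the libraries, which in EpiLC against mESC-2i rests on that minimum alone.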

Additional observations from a re-analysis of the deposited data

How the results depend on the processing

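With a replicate block the counts of called genes stayed at 36 lower and 0 higher in mESC-ser against mESC-2i. There the numbers were taken to pair the libraries. The counts stayed at 31 and 42 higher in the other comparisons, and none of the 132 results for a gene in a comparison changed its call. DESeq2, RLE scaling and added pseudogene counts changed none either. In mESC-ser against mESC-2i 1 gene, Atp5s, was called higher without a filter, in one fit of all 9 libraries and with the block and length and GC offsets together. At an absolute log2 fold change over 1, 17 subunit genes were called lower and 0 higher there. Of all 15728 tested genes 2713 were then lower and 2222 higher. Only 1 gene lay above those of like length with transcript length or with level also held. In EpiLC against mESC-2i 27 genes were higher with total counts (median 0.797) and 2, Sdha and Cox7a1, were lower. Of all 15378 tested genes 3709 were then higher and 7284 lower. At a fold change over 1, 25 subunit genes were higher and 0 lower, against 3317 and 4138 of all tested genes. With level also held, 19 lay above genes of like length. In EpiLC against mESC-ser 38 genes were higher with total counts (median 1.72) and 1, Sdha, was lower. Of all 15345 tested genes 4294 were then higher and 7195 lower. At a fold change over 1, 37 subunit genes were higher and 0 lower, against 3863 and 4094 of all tested genes. Sdha was also lower on adjusted p alone. Total counts moved the median of all genes from -0.11 to -0.45 in EpiLC against mESC-2i, and the share of calls that were higher from 45.9% to 33.7%. Cox6a1 was at -0.19 there with length and GC offsets (-0.18 with the block). Over all 3 comparisons those offsets ended 14 other calls and added 5. The causes were not tested. Leaving out 1 library gave 33 to 39 lower and 0 to 1 higher in the first comparison (1 without replicate 2 of mESC-2i, and 1 without replicate 3 of both groups, an alternative added after the data were seen, as were the pseudogene counts), 30 to 32 higher and 1 to 2 lower in the second (2 without replicate 3 of mESC-2i, which adds Cox7a1) and 40 to 42 higher in the third, and 3 to 3, 25 to 29 and 38 to 41 genes above those of like length. A left-out library leaves 2 in its group. The fewest counts were behind Cox7b2, Cox7a1 and Atp5s.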
